A study of Mus musculus with 12 samples.

Results

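The genes described here are Garem1 and 9 genes of epidermal growth factor (EGF) and hepatocyte growth factor (HGF) receptor signalling, namely Egfr, Erbb2, Erbb3, Met, Gab1, Grb2, Sos1, Errfi1 and Shc1. They were taken by symbol from a table of 21683 genes, and all 10 passed the filter on low counts that left 12459 genes for testing. To learn whether exposure of fathers to a phthalate altered the liver transcriptome of their sons, liver RNA was sequenced from 12 wild-type F1 male mice, 6 with vehicle-treated fathers (paternal control) and 6 with exposed fathers (paternal DCHP). F0 males were gavaged with corn oil vehicle or with dicyclohexyl phthalate (DCHP), a plasticizer, for 4 weeks from 8 weeks of age. They were then mated with unexposed females. From the age of 3 weeks, sons in both groups received 9 weeks of high-fat feeding, and the stated difference between the groups was the treatment of the father. All mice were C57BL/6J per the methods of the study. The labels do not name the sire or litter of any F1 mouse, and p-values therefore measure the spread between these animals. Brothers, if there were any, were counted as independent, and differences between sires or litters cannot be told apart from the treatment.

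Garem1 was selected on its measured difference between the groups in the same 12 livers, and the other genes as its signalling partners. The values by which it was chosen were a fold change of 1.55 and an edgeR adjusted p of 0.0314, inside the thresholds of 1.5 and 0.1 used for a differentially expressed gene. They are given as a description of the choice and not as a test. Egfr lay just outside, with a fold change of 1.80 and an edgeR adjusted p of 0.126.

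EGF receptor (EGFR) and its relatives ErbB2 and ErbB3 are tyrosine kinase receptors of the cell surface, and MET is the receptor for HGF. Once phosphorylated, these receptors recruit the adaptors SHC1, GRB2 and GAB1, and GRB2 brings the exchange factor SOS1 to RAS, which starts the RAF, MEK and ERK kinase cascade. In the liver EGFR and MET are best known for driving hepatocyte proliferation and survival during regeneration. GAREM1 is an adaptor that, in human cells, is phosphorylated after EGF treatment, binds GRB2 and the phosphatase SHP2, and promotes ERK activation. ERRFI1, also called MIG6, is a feedback inhibitor that binds the EGFR kinase domain.

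Total estimated counts ranged from 23794728 to 30445338 per library. Hepatocyte markers summed to between 69555 and 97622 CPM in the 12 livers, where CPM, the usual abundance unit of RNA-seq, is the count as a share of the TMM-scaled library total. Kupffer cell and macrophage markers summed to between 230 and 382 CPM in the control group and between 277 and 778 CPM in the DCHP group. All 13 of these markers had positive log2 fold changes, against 51.5% of all tested genes. Of the 13, 4 had an unadjusted p under 0.05, against 18.9%. EdgeR called 0 of them, against 1.28% of all tested genes, DESeq2 called 1 and limma-voom 0. Over all tested genes, DESeq2 called 243 higher and 83 lower, and limma-voom 74 and 43. DCHP 5 had the highest Kupffer sum and the highest correlation between its expression and gene length, 0.39. This correlation ranged from -0.29 to 0.013 in controls and from -0.067 to 0.30 in the other DCHP livers, so it tended to be higher in the DCHP group. DCHP 1 and DCHP 4 had the highest scores for immediate-early and stress transcripts, at 1.79 and 0.69 on the log2 scale against at most 0.32 in the others. Of 28 such genes tested, edgeR called 5 higher (Klf6, Btg2, Atf3, Egr1 and Fosb) and 0 lower, against 0.963% and 0.313% of all tested genes. Without DCHP 1 and DCHP 4, 2 of the 28 were called, with 155 genes called higher and 28 lower over all tested genes. Without control 3, 0 of the 28 were called, with only 4 called higher and 3 lower over all tested genes. With all 12 livers these totals were 120 and 39.

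Garem1 levels of all 6 livers with paternal DCHP exceeded those of all 6 control livers. Its level was 34.8, 34.2, 23.1, 32.4, 27.7 and 28.8 CPM in controls 1 to 6, and 41.0, 42.9, 48.9, 49.0, 54.6 and 44.1 CPM in DCHP 1 to 6. The means were 30.2 ± 4.47 and 46.8 ± 5.03 CPM (SD, n = 6 each), a log2 fold change of 0.63 ± 0.10 (SE). The highest control liver and the lowest DCHP liver were thus separated by a narrow gap, and the lowest value of all belonged to control 3 and the highest to DCHP 5. Garem1 lies on chromosome 18 of mm10 from 21127201 to 21300138 on the minus strand. Its fold change fell below the 1.5-fold threshold without control 3, at 0.57 ± 0.09 on the log2 scale, and without DCHP 5, at 0.58 ± 0.10. Correcting the libraries for trends on gene length and GC content gave 0.59 ± 0.10. In bulk liver, a change in the number of cells of a type and a change in the RNA per cell cannot be told apart. DCHP 5, with the highest Garem1, also had the highest Kupffer marker sum, correlation with gene length and mitochondrial share of counts. The part of each in the Garem1 level was not tested.

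**Figure D1:**
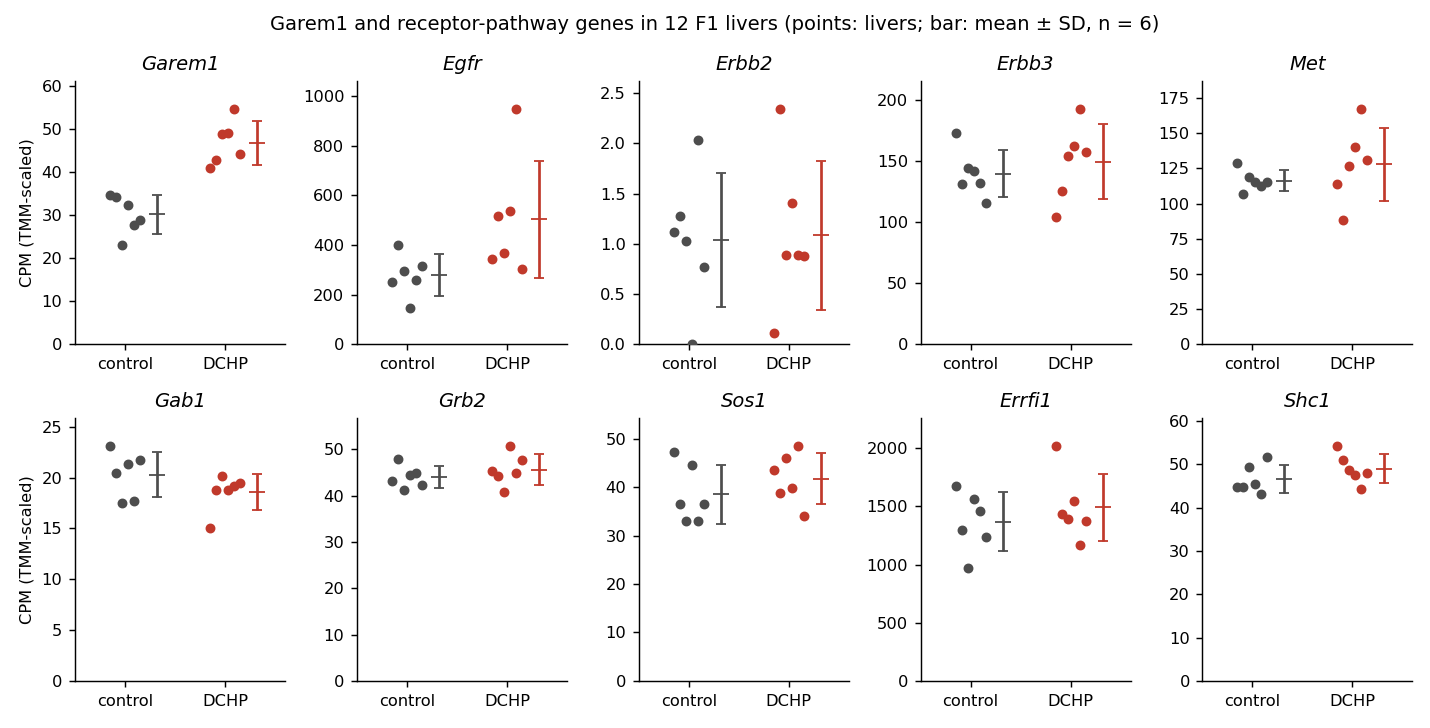
Levels of the 10 genes in each liver, in TMM-scaled CPM on linear axes that start at 0, for paternal control (grey) and paternal DCHP (red); points are livers and bars are the mean ± SD (n = 6). The Garem1 points of the groups do not overlap, with control livers at 34.8 CPM or less and DCHP livers at 41.0 CPM or more, while all other genes overlap.

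Of the 10 genes, edgeR called 1 higher (Garem1) and 0 lower in the paternal DCHP group. Over all tested genes, 0.963% were called higher and 0.313% lower, 1.28% in either direction. Garem1 was also the 1 gene of the 10 whose groups did not overlap with DCHP higher, which was so for 0.907% of all tested genes, and 0 of the 10 had all DCHP livers lower, against 1.24%. Since these genes were chosen with this contrast known, nothing is read from the counts. Garem1 and Egfr, 2 of the 10, had an unadjusted p under 0.05, as did 18.9% of all tested genes. Log2 fold changes were positive for 9 of 10, all but Gab1, against 51.5% of all tested genes. DESeq2 and limma-voom each called 1, Garem1. The median log2 fold change of the 10 genes was 0.11 against 0.0087 for all tested genes.

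**Figure D2:**
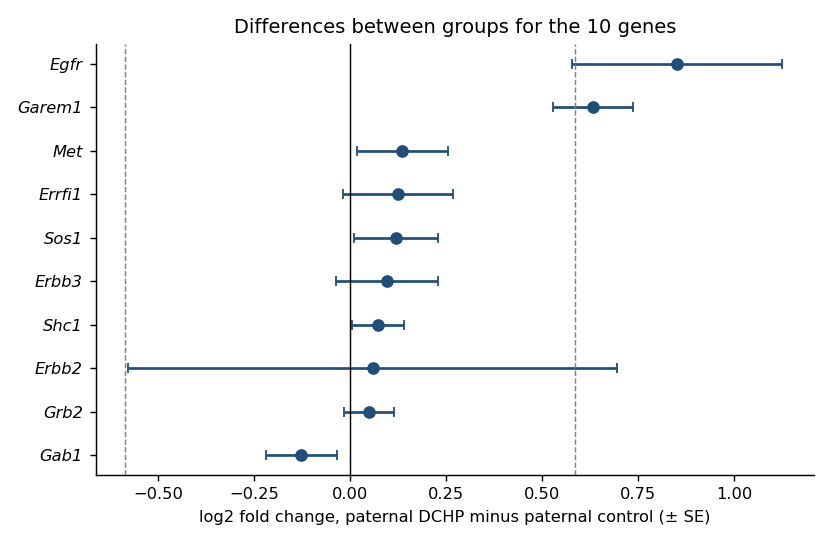
Log2 fold change of each gene between paternal DCHP and paternal control (points, edgeR), with its SE as the horizontal bar; dashed lines mark a 1.5-fold change in either direction. Egfr (0.85) and Garem1 (0.63) are the genes beyond the right dashed line, the other 8 lie between -0.13 and 0.14, and Erbb2 has the widest bar (SE 0.64).

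Among the receptors, Egfr had the largest log2 fold change between groups and, in CPM, the widest range over the livers. Egfr stood at 252, 402, 297, 146, 260 and 316 CPM in controls 1 to 6, and at 345, 516, 367, 538, 948 and 305 CPM in DCHP 1 to 6. All 6 DCHP livers lay above the control mean, but only DCHP 2, DCHP 4 and DCHP 5 lay above the highest control liver. The means were 279 ± 84.1 and 503 ± 237 CPM (SD, n = 6 each), and the log2 fold change of 0.85 ± 0.27 (SE) did not pass the threshold (edgeR adjusted p = 0.126). The highest liver held 6.47 times the Egfr level of the lowest. DCHP 5 stood far above the other DCHP livers, and without it the log2 fold change was 0.57 ± 0.22 (edgeR adjusted p = 0.234). DCHP 5 also had the highest Kupffer marker sum (778 CPM), the highest correlation with gene length (0.39) and the highest mitochondrial share of counts (8.03%). The part of each in the Egfr level was not tested. With length and GC trends removed from all 12 libraries, the Egfr log2 fold change was 0.71 ± 0.26 (edgeR adjusted p = 0.187). Without DCHP 6, the DCHP liver with the least Egfr, it was 0.97 ± 0.27 and passed (edgeR adjusted p = 0.0825).

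Erbb3, which encodes a receptor with little kinase activity of its own that signals through its partners, overlapped between groups. It ranged from 115 to 173 CPM in controls, with a median of 137, and from 104 to 192 CPM in DCHP livers, with a median of 156. The difference, 0.10 ± 0.13 on the log2 scale (SE), did not pass (edgeR adjusted p = 0.726). DCHP 1 had the lowest and DCHP 5 the highest value of the 12 livers. Met ranged from 107 to 129 CPM in controls, with a median of 115, and from 88.5 to 167 CPM in DCHP livers, with a median of 129. Of the DCHP livers, 3 lay above the control range, 1 below and 2 within it, and the log2 fold change of 0.14 ± 0.12 did not pass (edgeR adjusted p = 0.550). The coefficient of variation of Met was 6.34% in controls and 20.5% with paternal DCHP, a difference in spread that was not tested.

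The promoters of Egfr and Met are shown because these are the principal growth factor receptors of hepatocytes and differed in spread, the Egfr level varying 6.47-fold and the Met level 1.89-fold over the 12 livers. Each sequence covers 300 bases around the transcription start (RefSeq, GRCm38.p6), 5′ to 3′ on the plus strand, with GC boxes, GGGCGG on either strand, in capitals. Egfr is from chr11:16751953-16752252 and Met from chr6:17463707-17464006.
Egfr: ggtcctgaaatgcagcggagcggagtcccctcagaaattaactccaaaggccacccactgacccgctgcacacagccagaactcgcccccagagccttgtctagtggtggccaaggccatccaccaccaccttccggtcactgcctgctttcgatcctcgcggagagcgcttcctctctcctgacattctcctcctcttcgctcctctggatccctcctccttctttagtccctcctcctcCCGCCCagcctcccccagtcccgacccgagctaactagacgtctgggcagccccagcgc
Met: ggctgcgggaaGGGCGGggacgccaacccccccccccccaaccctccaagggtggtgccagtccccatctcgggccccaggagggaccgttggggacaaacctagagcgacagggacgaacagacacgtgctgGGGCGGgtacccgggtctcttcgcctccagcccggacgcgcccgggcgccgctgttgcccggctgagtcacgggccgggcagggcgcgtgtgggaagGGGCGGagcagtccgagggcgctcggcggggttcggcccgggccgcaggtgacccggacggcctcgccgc
The Egfr window held 1 GC box and the Met window 3, against at least 1 in 35.7% of the 32841 promoter windows of this length. Neither held TATAAA on either strand, which 13.6% of windows did. The Met window also held 1 match to TGANTCA, the AP-1 letters, found in 7.81% of windows, and the Egfr window held 0. GC content was 62.3% for Egfr and 75.7% for Met. Of the 10 genes, 8 had a promoter entry.

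Erbb2, the receptor with no known ligand of its own, was close to the limit of detection. It had 26, 34, 27, 0, 58 and 23 estimated counts in controls 1 to 6, and 2.80, 66, 28.9, 31, 20.9 and 20.7 in DCHP 1 to 6. A count of 0 in control 4 allows up to 0.119 CPM (3 counts), and DCHP 1 stood at 0.11 CPM, while the other 10 livers lay between 0.77 and 2.34 CPM. These limits cover counting error only. The groups overlapped, at 0.06 ± 0.64 (SE) on the log2 scale (edgeR adjusted p = 0.970). Markers of cholangiocytes, the epithelial cells of the bile ducts, summed to between 32.3 and 66.2 CPM in controls and between 36.2 and 52.2 CPM in DCHP livers, and 4 of the 7 tested had positive log2 fold changes. Krt19, Epcam and the other listed markers had counts in at least 1 library. Their part in the Erbb2 level was not tested. Exons of Erbb2 overlap those of Mien1 on the opposite strand by 9 bases.

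Of the adaptor genes, Grb2 and Shc1 varied little. Grb2, the adaptor that links phosphorylated receptors to SOS1, ranged from 41.3 to 48.0 CPM in controls, with a median of 43.9, and from 40.7 to 50.7 CPM in DCHP livers, with a median of 45.1. The groups overlapped, at 0.05 ± 0.07 (SE) on the log2 scale (edgeR adjusted p = 0.716). Shc1, which encodes adaptor isoforms that couple receptors to GRB2, ranged from 43.1 to 51.7 CPM and from 44.3 to 54.2 CPM, with medians of 45.2 and 48.4. They overlapped likewise, at 0.07 ± 0.07 (edgeR adjusted p = 0.583). Highest and lowest livers differed 1.25-fold for Grb2 and 1.26-fold for Shc1, the narrowest ranges of the 10 genes.

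Sos1, the RAS exchange factor gene, ranged from 33.0 to 47.2 CPM in controls, with a median of 36.5, and from 34.0 to 48.5 CPM in DCHP livers, with a median of 41.7. Control and DCHP livers overlapped, at 0.12 ± 0.11 (SE) on the log2 scale (edgeR adjusted p = 0.575). Gab1, the docking protein gene on which MET signalling relies, had the only negative log2 fold change, -0.13 ± 0.09 (edgeR adjusted p = 0.473). It ranged from 17.5 to 23.1 CPM in controls, with a median of 20.9, and from 15.1 to 20.2 CPM in DCHP livers, with a median of 19.0. All DCHP livers were below the control mean of 20.3 CPM, and only DCHP 1 was below the control range. Exons of Gab1 overlap 266 bases of an antisense gene, Gm31105, and since the strand setting is not given, reads of the pair cannot be told apart.

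The feedback inhibitor gene Errfi1 was the most abundant of the 10 genes. It ranged from 968 to 1676 CPM in controls, with a median of 1381, and from 1171 to 2021 CPM in DCHP livers, with a median of 1415. The highest value was that of DCHP 1, which was alone above the control range. The log2 fold change was 0.12 ± 0.14 (SE, edgeR adjusted p = 0.661), and without DCHP 1 and DCHP 4 it was -0.03 ± 0.14.

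Per kilobase of exon, Errfi1 stood at 382 ± 71.1 CPM per kb in control livers (SD, n = 6), above Egfr at 24.6 ± 7.43 and Erbb3 at 23.2 ± 3.19. The Egfr and Erbb3 levels were not separated, since Egfr was the higher in 4 of 6 control livers. Met (15.1 ± 0.96 CPM per kb) and Grb2 (15.1 ± 0.81 CPM per kb) were not separated either, with Met higher in 3 of 6. Shc1 followed at 8.25 ± 0.58 CPM per kb. Garem1, at 4.84 ± 0.72 CPM per kb, overlapped in range with Gab1 (4.00 ± 0.44) but was the higher in 6 of 6 control livers. Gab1 overlapped with Sos1 (3.63 ± 0.57) and was the higher in 5 of 6. Erbb2 was last at 0.20 ± 0.13 CPM per kb. With paternal DCHP, Garem1 stood at 7.50 ± 0.81 CPM per kb, its lowest liver (6.58) above the highest Gab1 (3.97) and Sos1 (4.58) livers of that group.

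Variation between livers of the same group, which did not enter the choice of the genes, was compared for all 45 pairs of the 10 genes on log2 CPM after removal of the group means. Erbb3 and Met varied together, with Pearson r = 0.75 (permutation p = 0.0206, adjusted p = 0.277 over the 45 pairs) and Spearman rho = 0.93 (permutation p = 0.00028, adjusted p = 0.0126). The r was 0.76 within controls, 0.78 within DCHP livers, 0.72 without DCHP 1 and DCHP 5, the livers farthest from the median of Erbb3, and 0.72 with length and GC trends removed. By r no pair passed an adjusted p of 0.1, and by rho this pair alone did. The smallest p by r was that of Erbb3 with Shc1, at r = -0.75 and rho = -0.59 (permutation p = 0.0076 and 0.0472, adjusted p = 0.277 and 0.441), with r = -0.43 within controls, -0.99 within DCHP livers and -0.51 without DCHP 1 and DCHP 5. Garem1 had r = 0.71 and rho = 0.57 with Gab1 (permutation p = 0.0155 and 0.0687, adjusted p = 0.277 and 0.441), and 0.66 without control 3 and DCHP 5. With Sos1 it had r = 0.68 and rho = 0.69 (permutation p = 0.0275 and 0.022, adjusted p = 0.277 and 0.364), and 0.57 without the same livers. With Egfr, r was 0.25. The r of Garem1 with Shc1 was -0.65 and rho -0.68 (permutation p = 0.0307 and 0.0243, adjusted p = 0.277 and 0.364), and -0.53 without the same livers.

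**Figure D3:**
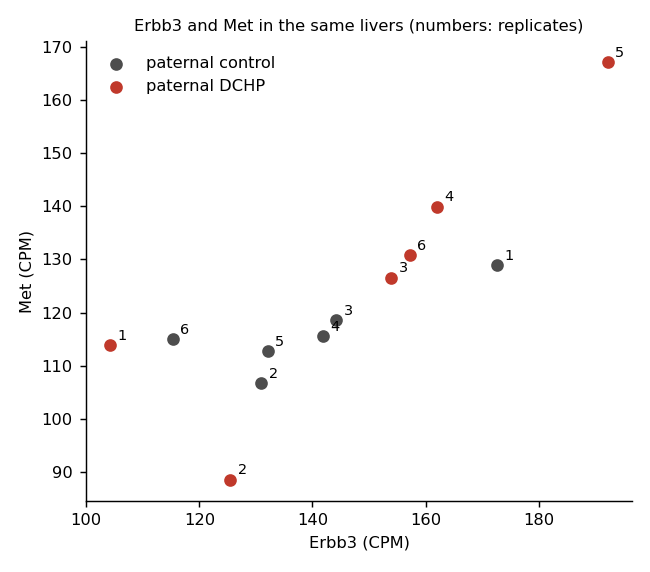
Met against Erbb3 level in the same livers, both in CPM on linear axes that do not start at 0; grey points are paternal control and red points paternal DCHP livers, with replicate numbers beside them. Livers with more Erbb3 had more Met (rho = 0.93 after removal of group means), and DCHP 5 is highest on both axes, at 192 and 167 CPM.

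The 5 genes whose levels followed Garem1 most closely between livers of the same group, out of 11442 compared, were Cpne3 (r = 0.95), Setd2 (0.94), Chn2 (0.94), Ptpn23 (0.93) and Zfp407 (0.92), over 12 libraries on log2 CPM with group means removed. They were picked as the highest values, so no p is given. Their Spearman rho was between 0.87 and 0.94. Like Garem1, 4 of the 5 were lowest in control 3 and highest in DCHP 5, among them Setd2, a histone methyltransferase gene (32.1 and 55.2 CPM). The exception was Chn2, lowest in DCHP 1. Between groups, edgeR, DESeq2 and limma-voom called 0 of the 5, while 2 reached an unadjusted p under 0.05. Their log2 fold changes ranged from -0.11 for Chn2 to 0.31 for Zfp407, with adjusted p from 0.149 to 0.429.

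Beyond the 10 genes, 121 further pathway genes were listed by role, of which 106 passed the filter on low counts. EdgeR called 4 of them higher (Stat3, Elk4, Fosl2 and Egr1) and 0 lower, 22 had an unadjusted p under 0.05, and 72 had positive log2 fold changes, with a median of 0.094. Over all tested genes, edgeR called 0.963% higher and 0.313% lower, 18.9% had an unadjusted p under 0.05 and 51.5% were positive. DESeq2 called 243 of all tested genes higher and 83 lower, and limma-voom 74 and 43. These values are the background for each list that follows. This list too was written with earlier results of these livers known.

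Of 15 tested genes for ligands and their activation, none was called by edgeR (0), DESeq2 (0) or limma-voom (0), and 1 reached an unadjusted p under 0.05. The smallest p values were those of Rhbdf2 and Rhbdf1, which encode inactive rhomboid proteins needed for the maturation of the sheddase ADAM17. The Rhbdf2 means were 9.99 ± 1.08 and 12.5 ± 1.51 CPM (SD, n = 6 each), 0.32 ± 0.10 (SE) on the log2 scale (edgeR adjusted p = 0.131), and Rhbdf1 had 0.22 ± 0.12 (0.310). Tgfa and Hgf are named for their role, after their values were seen. Tgfa, an EGFR ligand made by hepatocytes, was at 17.9 ± 2.38 and 19.1 ± 2.54 CPM, and Hgf, the MET ligand made by stellate cells, at 7.74 ± 2.36 and 9.65 ± 3.87 CPM. Neither passed (edgeR adjusted p = 0.671 and 0.496). Among the ligand genes left out by the filter were Areg, with 2 counts summed over the control group and 20 over the DCHP group, and Ereg, with 47 and 95. Erbb4, the remaining receptor of the EGFR family that was tested, had a log2 difference of -0.49 ± 0.34 (SE) and was not called (edgeR adjusted p = 0.446).

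Of 18 genes tested in the list of other adaptors and docking proteins, edgeR called 1 higher and 0 lower, DESeq2 called 2 and limma-voom 1. The gene called by edgeR was Stat3, which is not an adaptor gene, so edgeR called no adaptor gene of this list. Stat3, a transcription factor gene that EGFR and cytokine receptors activate, ranged from 76.9 to 92.6 CPM in controls and from 99.6 to 225 CPM in DCHP livers, with DCHP 4 the highest, and the groups did not overlap. Its log2 fold change was 0.83 ± 0.17 (SE, edgeR adjusted p = 0.0434), and it was not called without control 3, control 4 or control 6, with edgeR adjusted p up to 0.112. The Stat3 log2 fold change was 0.81 in each of these settings, in which 4, 22 and 21 of all tested genes were called higher. Neutrophil markers, which also peaked in DCHP 4, summed to between 5.20 and 14.5 CPM in controls and between 14.7 and 118 CPM in DCHP livers. The sum covers 10 listed genes, Lcn2 among them. S100a8, Ly6g, Mpo, Retnlg and Ngp did not pass the filter, with Ly6g at 0 in all livers. Of the 5 tested, 4 were positive and 1 was called, against 51.5% and 1.28% of all tested genes. Whether the sum followed neutrophils or Lcn2 alone was not tested. The part of these markers in the Stat3 level was not tested. Garem2, the paralog of Garem1, had 2 counts summed over the control group and 0 over the DCHP group and was not tested. Ptpn11, which encodes SHP2 and is named for its role after its values were seen, was at 79.99 ± 4.43 and 89.0 ± 8.32 CPM, and the difference of 0.15 ± 0.07 on the log2 scale did not pass (edgeR adjusted p = 0.266).

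For the RAS, RAF, MEK and ERK kinases, 0 of 20 were called by edgeR, by DESeq2 or by limma-voom, and an unadjusted p under 0.05 was found for 3. The smallest p values were those of Braf, the B-Raf kinase gene (0.37 ± 0.11, edgeR adjusted p = 0.114), and Mapk3, which encodes ERK1 (-0.19 ± 0.07, 0.192). With length and GC trends removed, Braf was at 0.23 ± 0.08 and Mapk3 at -0.09 ± 0.06. Of 9 tested genes of the PI3K and AKT branch, these tools again called 0, with an unadjusted p under 0.05 for 1. Pdpk1, the gene of the kinase that phosphorylates AKT, had 0.24 ± 0.11 on the log2 scale (edgeR adjusted p = 0.243) and Pik3r2, a PI3K regulatory subunit gene, -0.13 ± 0.07 (0.349). With the same trends removed, Pdpk1 was at 0.12 ± 0.08 and Pik3r2 at -0.11 ± 0.06. Of 27 inhibitors of receptor and ERK signalling, edgeR and limma-voom called 0 and DESeq2 called 1, while 6 had an unadjusted p under 0.05. Ptprj, a receptor phosphatase gene, had 0.24 ± 0.08 (edgeR adjusted p = 0.145), and 0.16 ± 0.07 with length and GC trends removed. Dusp4, a nuclear ERK phosphatase gene, had 1.39 ± 0.52 (0.172) and stood at 15.4 CPM in DCHP 1, 6.15 CPM in DCHP 4 and at most 2.94 CPM in the other livers. Without DCHP 1 the Dusp4 log2 fold change was 0.60 ± 0.35, without DCHP 1 and DCHP 4 it was 0.13 ± 0.26, and without DCHP 6 it was 1.602 ± 0.46 and was called (edgeR adjusted p = 0.0911).

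Transcripts listed as responsive to ERK are described next, and ERK activity itself was not measured. The list includes Elk4, whose protein is a target of ERK. It shares Egr1 and other genes with the immediate-early and stress list. Of 22 tested genes of the ERK-responsive list, 21 had positive log2 fold changes, with a median of 0.69. EdgeR called 3 of the 22 higher (Elk4, Fosl2 and Egr1) and 0 lower. DESeq2 called 5, Elk4 and Fosl2 among them but not Egr1, and limma-voom called 1, Elk4. Of all tested genes, 51.5% were positive and 0.963% were called higher by edgeR, and their median was 0.0087. Elk4, which encodes an ETS factor that ERK phosphorylates, ranged from 18.0 to 24.1 CPM in controls and from 27.5 to 43.1 CPM in DCHP livers without overlap. Its log2 fold change was 0.63 ± 0.11 (SE, edgeR adjusted p = 0.0434), and its call was lost under 4 of 22 alternatives. Among these were leaving out control 3 or DCHP 5 and removing length and GC trends, when its fold change fell below 1.5. Fosl2, an AP-1 subunit gene, ranged from 8.93 to 14.3 CPM and from 12.8 to 40.6 CPM (1.05 ± 0.26, edgeR adjusted p = 0.0725), and was lost under 12 of 22 alternatives.

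Egr1, an immediate-early transcription factor gene, stood at 709 CPM in DCHP 1, 84.8 CPM in DCHP 4 and at most 49.4 CPM in any other liver, the controls ranging from 5.79 to 30.6 CPM. Its log2 fold change was 3.12 ± 0.88 (SE, edgeR adjusted p = 0.0928) and fell to 1.22 without DCHP 1, with the call lost under 14 of the 21 alternatives that gave an adjusted p. Dusp6, a cytosolic ERK phosphatase gene named after its values were seen, reached 271 CPM in DCHP 1, whereas the remaining DCHP livers held 22.3 to 76.1 CPM and controls 37.7 to 84.3 CPM. Its log2 fold change was 0.53 ± 0.48 (edgeR adjusted p = 0.566) with DCHP 1 and -0.30 ± 0.27 without it. Without DCHP 1 and DCHP 4 the list had 1 called gene (Elk4), 16 positive log2 fold changes of 22 and a median of 0.19. With length and GC trends removed 0 were called, as without control 3 and without DCHP 5, and 6 were called without DCHP 6. In these settings, in that order, edgeR called 86, 4, 59 and 175 of all tested genes higher. That total was 120 with all libraries and no trend removed, and 155 without DCHP 1 and DCHP 4.

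**Figure D4:**
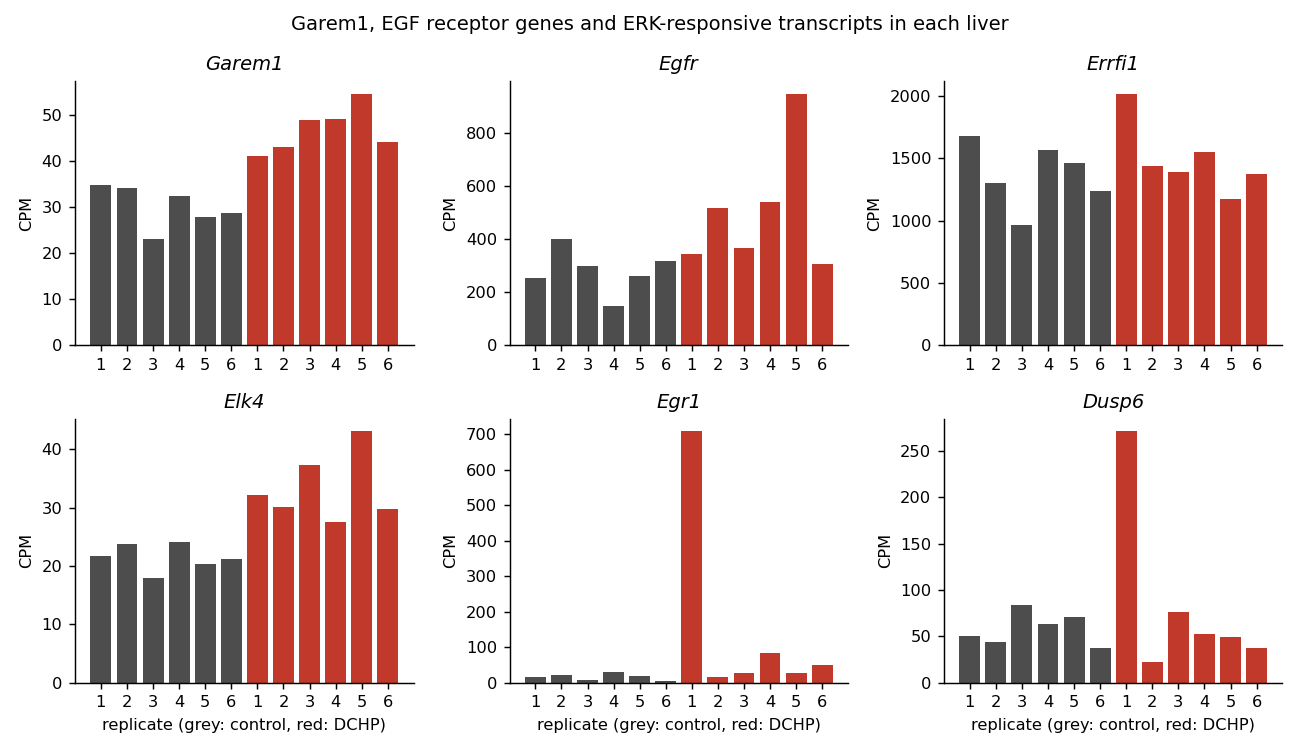
Levels in CPM of Garem1, Egfr, Errfi1 and 3 genes of the ERK-responsive list (Elk4, Egr1 and Dusp6) in each liver. Bars start from 0 on linear axes, with paternal control in grey and paternal DCHP in red. Garem1 and Elk4 are higher in all 6 DCHP livers, Egfr is highest in DCHP 5 (948 CPM), and Egr1 (709 CPM), Dusp6 (271 CPM) and Errfi1 (2021 CPM) are highest in DCHP 1.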

How the data were processed

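RNA-seq of liver from 12 F1 male mice was analysed, 6 per group, grouped by title. Estimated counts for each gene symbol were deposited by the authors in a single table, on mm10 per the labels. For the aligner, counting program, annotation and strand setting, the sources used here give nothing. Counts were rounded, and genes were filtered with filterByExpr (minimum count 10) and tested with the quasi-likelihood test of edgeR (version 4.0.16, R version 4.3.3) with TMM factors, without covariates. A call required a fold change above 1.5 and an adjusted p (Benjamini-Hochberg, 12459 genes) under 0.1, the thresholds of the study. SE is the absolute log2 fold change over the square root of F. Marker scores are mean log2 CPM (prior count 2) centred per gene. Exon lengths and positions came from GENCODE M21. Pairs of genes were tested with 100000 permutations within groups. Alternatives were other scaling factors (RLE, upper quartile, or TMM leaving out the 20 genes of highest count), other filters, DESeq2 (version 1.42.0), limma-voom (version 3.58.1), a replicate block, length and GC trend removal, other thresholds, and libraries left out. The edgeR, DESeq2 and limma-voom tests were tested on simulated data. The genes, lists and tests were chosen with earlier results of these data known. Beyond the 10 genes, those named were the called members of each pathway list, otherwise the 2 with the smallest p, and the 5 genes most like Garem1. Tgfa, Hgf, Ptpn11, Dusp6, Areg, Ereg and Garem2 fall outside this rule and were named for their role after their values were seen. No library pair within a group was a duplicate (chi-square per degree of freedom at least 16.6).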

Additional observations from a re-analysis of the deposited data

Results flagged for a closer look

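Values of the 10 genes were examined for livers that stood apart within each group of 6, 20 groups in all, by the gap to the nearest liver as a share of the group's range, and chance alone gives about 1 in 20. Egfr in DCHP 5 was at 947.5 CPM, and the other DCHP livers lay between 304.8 and 537.9 CPM, a gap of 0.637 of the range. Gab1 in DCHP 1 was at 15.07 CPM, and the other DCHP livers lay between 18.8 and 20.17 CPM, a gap of 0.731 of the range.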

How the results depend on the processing

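Garem1 kept a positive log2 fold change under all 22 alternatives, from 0.57 to 0.68, and its call under 20, and Egfr ranged from 0.57 to 0.98 with 1 call. The genes called higher, 120, were 243 with DESeq2, 74 with limma-voom, 42 with the replicate block, 24 at an adjusted p under 0.05, 285 with no fold change minimum, and 4 to 175 with 1 library left out. Those called lower, 39, were 83 with DESeq2, 17 with the replicate block, 12 at an adjusted p under 0.05, 194 with no fold change minimum, and 3 to 58 with 1 library left out. The smallest counts came without control 3. Of the 10 genes, 0 to 2 were called higher with 1 library left out and 1 under each other alternative. Erbb2 ranged from -0.33 to 0.37 with 1 library left out and Dusp6 from -0.30 to 0.73. Without DCHP 1 and DCHP 4, Errfi1 was at -0.026 and Dusp6 at -0.34. The cause was not tested. Same-numbered livers of the groups did not vary together (correlations from -0.12 to 0.17, 1 of 6 livers closest to its own number), so the replicate block rests on the number alone; it changed no call among the 10 genes and left Elk4 with an edgeR adjusted p of 0.104 and 0 of 22 ERK-responsive transcripts called.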
